A study of Mus musculus with 23 samples.

Results

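The 10 genes described here mark macrophages in B16F10 tumors, 10 of the 47643 genes of the series. They were taken by symbol and kept in 2 classes. Adgre1, Csf1r, Cd68, C1qa, C1qb and C1qc mark macrophage identity (6 genes), and Mrc1, Arg1, Nos2 and Cd163 mark states of activation (4 genes). B16F10 is a mouse melanoma line derived from a C57BL/6 tumor. Its bulk tumors gave 6 RNA-seq libraries, 2 each of control (genotype WT), sg492 and sg495 (both genotype NR2F6 KO). sg492 and sg495 are guides against Nr2f6, a nuclear receptor, delivered with Cas9 protein as Cy3-labeled RNA, and the edited cells were a population sorted for Cy3. Per the study's methods, B16F10 cells were injected subcutaneously into male C57BL/6 mice of 6 to 8 weeks. NSG and NR2F6 KO mice were also used as hosts in the study. The methods do not name the host of the sequenced tumors. It is taken here to be C57BL/6 without an edit in Nr2f6. The time from injection to collection of these tumors is not given in the sources used here. A further 5 libraries of genotype WT carry the labels IgG_Control (2) or anti-PD1 (3), an antibody against the inhibitory receptor PD-1 of T cells. Their labels give the line B16F10 but no sample type, no schedule and no host, and they were placed from the labels alone. Tumor cells sorted with magnetic beads and cultured cells (6 libraries each, again 2 per guide and control) served as background. Nothing in the labels says that the 2 libraries of a group came from separate mice, so p-values measure the spread between these libraries only.

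Macrophages enter tumors mostly as blood monocytes and are kept alive by CSF1 or IL-34 acting on the receptor CSF1R. Once in the tissue they carry the adhesion receptor F4/80 (Adgre1) and the endosomal protein CD68, and they are the main source of C1q, the first component of the classical complement pathway. Their activation was long described by an axis on which nitric oxide synthase (Nos2), induced by IFN-γ and endotoxin, stands against arginase 1 (Arg1), the mannose receptor (Mrc1) and the hemoglobin scavenger receptor CD163, induced by IL-4, IL-10 or glucocorticoids. NOS2 and ARG1 use the same substrate, arginine.

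Levels are in TPM, which is scaled for gene length and library, so genes may be compared with each other. Differences are in log2(TPM + 1) with the standard error (SE) of limma, and calls required a p below 0.05 after Benjamini-Hochberg adjustment over all genes tested, with a 1.5-fold or greater change. The log2(TPM + 1) scale understates the change of genes with low levels. The depth of single libraries is unknown from TPM. Nr2f6 was checked first, and its bulk tumor levels were 25.83 and 25.24 TPM for control, 22.31 and 23.31 TPM for sg492, and 17.22 and 15.76 TPM for sg495. The 3 groups did not overlap, and the difference from control was −0.60 (SE 0.0893, limma adjusted p = 0.0865) with sg495 and −0.16 (SE 0.0893, limma adjusted p = 0.678) with sg492. Between 13330 and 13899 genes had at least 1 TPM in the bulk tumors. The melanocyte genes (Mlana, Pmel, Tyr, Tyrp1, Dct and Mitf) summed to between 14782 and 15829 TPM there, so the defining markers of the labeled line were present.

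In bulk tumors, all 6 identity genes had their lowest levels in control and their highest in sg495, and sg492 lay between. Each of the 6 was higher in both sg495 libraries than in both controls, and none was called. Of the 13639 genes tested, 31.6% were separated in this way and 0.0293% were called in either direction. The median difference of the identity genes was 0.90, against 0.06 over all genes. All 6 had an unadjusted p below 0.05 and were higher, as had 11.1% of all genes. In bulk samples, more macrophages and more RNA per macrophage cannot be told apart.

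Adgre1 (ENSMUSG00000004730, GRCm38 chromosome 17, 57358691 to 57483527, plus strand) is the gene of F4/80, the standard surface marker of mouse macrophages. It had 13.57 and 8.05 TPM in the controls, 17.74 and 19.09 TPM in sg492 tumors, and 23.18 and 32.38 TPM in sg495 tumors. The 3 groups did not overlap. The sg495 difference was 1.31 (SE 0.252, limma adjusted p = 0.105), the widest of the 10 genes. For sg492 it was 0.76 (SE 0.252, limma adjusted p = 0.522).

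Csf1r (ENSMUSG00000024621, GRCm38 chromosome 18, 61100598 to 61132149, plus strand) is the receptor through which CSF1 sustains macrophages. It had 13.71 and 9.27 TPM in the controls, 15.80 and 19.89 TPM in sg492 tumors, and 23.63 and 24.73 TPM in sg495 tumors. Again the 3 groups stood apart in that order. The difference was 1.03 with sg495 (SE 0.193, limma adjusted p = 0.105) and 0.61 with sg492 (SE 0.193, limma adjusted p = 0.508). Csf1r overlaps Hmgxb3 on the opposite strand. The library kit keeps the strand, but whether the reads were counted by strand is not given in the sources used here.

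Cd68 (ENSMUSG00000018774, GRCm38 chromosome 11, 69664213 to 69666153, minus strand) encodes a glycoprotein of late endosomes and lysosomes that other cells also make at low levels. It had 56.34 and 44.01 TPM in the controls, 63.62 and 75.32 TPM in sg492 tumors, and 78.83 and 81.95 TPM in sg495 tumors. The groups were in the same order with no overlap. Its difference was 0.68 with sg495 (SE 0.136, limma adjusted p = 0.105), the smallest of the identity genes for that guide, and 0.47 with sg492 (SE 0.136, limma adjusted p = 0.500).

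**Figure D1:**
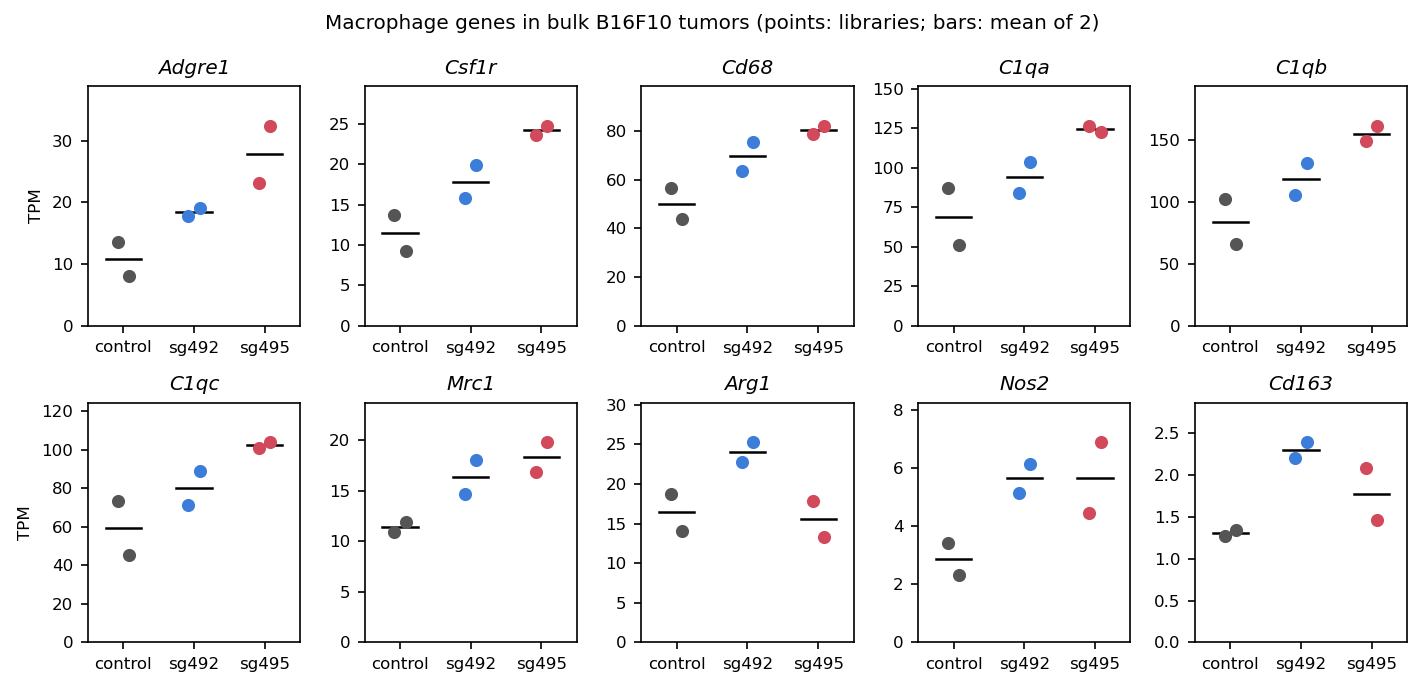
TPM of the 10 macrophage genes in the bulk tumors of control, sg492 and sg495, on axes that start at 0. Each point is a library and each bar the mean of 2 libraries. The 6 identity genes step up from control to sg495, whereas Arg1 is highest with sg492 and overlaps control with sg495.

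C1qa, C1qb and C1qc encode the 3 chains of C1q, which assemble in equal numbers. They lie side by side on the minus strand of GRCm38 chromosome 4, within 136880129 to 136898803. In control, C1qb, the most abundant of the 10 genes in bulk tumors, had 102.39 and 65.77 TPM. Its levels were 105.93 and 131.09 TPM in sg492 tumors and 149.08 and 161.21 TPM in sg495 tumors. For C1qa the values were 87.06 and 51.23 TPM in the controls, 84.11 and 103.78 TPM in sg492 tumors, and 126.49 and 122.71 TPM in sg495 tumors. Here the first control lay between the sg492 libraries, so control and sg492 overlapped, and sg495 was above both groups. C1qc had 73.47 and 45.22 TPM in the controls, 71.51 and 88.75 TPM in sg492 tumors, and 101.13 and 103.76 TPM in sg495 tumors, with the same overlap of control and sg492. The sg495 differences were 0.91 for C1qb (SE 0.209, limma adjusted p = 0.121), 0.89 for C1qa (SE 0.238, limma adjusted p = 0.152) and 0.82 for C1qc (SE 0.222, limma adjusted p = 0.155). With sg492 they were between 0.46 and 0.52, with limma adjusted p from 0.595 to 0.640.

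The 3 chains kept close to 1 ratio while their levels moved. C1qa over C1qb ran from 0.761 to 0.850 across the 6 bulk tumors, and C1qc over C1qb from 0.644 to 0.718, although C1qb itself spanned 2.45-fold. In the 5 IgG_Control and anti-PD1 libraries, where C1qb lay between 863.89 and 1454.02 TPM, the ratios were 0.669 to 0.771 and 0.606 to 0.678. C1qb was above C1qa and C1qa above C1qc in each of these 11 libraries.

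The stretch of 250 bases before the start of a gene is shown for C1qb and Cd68, whose levels went together in bulk tumors, and for Cd163, whose levels did not go with them (RefSeq, GRCm38.p6). Promoters of 5 of the 10 genes were matched, those of C1qb, C1qc, Cd68, Mrc1 and Cd163. Capitals mark GAGGAA or its reverse complement TTCCTC, the core letters bound by PU.1, the transcription factor of the myeloid lineage that Spi1 encodes.
C1qb (chr4:136886201-136886450, minus strand): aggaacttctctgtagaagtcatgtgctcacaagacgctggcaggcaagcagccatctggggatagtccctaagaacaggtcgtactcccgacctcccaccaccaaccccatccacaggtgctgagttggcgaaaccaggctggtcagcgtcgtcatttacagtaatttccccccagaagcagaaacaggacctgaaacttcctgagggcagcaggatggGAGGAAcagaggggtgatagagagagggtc
Cd68 (chr11:69666171-69666420, minus strand): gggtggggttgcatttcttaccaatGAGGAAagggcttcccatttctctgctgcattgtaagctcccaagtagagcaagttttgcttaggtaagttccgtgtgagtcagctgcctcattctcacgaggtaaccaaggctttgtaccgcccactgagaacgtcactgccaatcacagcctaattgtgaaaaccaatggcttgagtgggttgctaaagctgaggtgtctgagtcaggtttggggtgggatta
Cd163 (chr6:124304401-124304650, plus strand): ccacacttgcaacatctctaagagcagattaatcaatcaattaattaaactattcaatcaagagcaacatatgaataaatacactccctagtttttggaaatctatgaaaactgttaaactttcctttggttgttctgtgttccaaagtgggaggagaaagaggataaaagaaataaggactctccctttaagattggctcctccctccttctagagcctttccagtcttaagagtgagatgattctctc
On either strand these letters were found once for C1qb, C1qc and Cd68, 3 times for Mrc1 and 0 times for Cd163. They occur in 23.3% of the 32851 promoters of the same length, and a match is a description of letters, not a site. Spi1 itself had 11.31 and 9.91 TPM in the controls, 15.48 and 14.81 TPM in sg492 tumors, and 19.35 and 24.11 TPM in sg495 tumors. Its groups did not overlap, and its sg495 difference was 0.96 (SE 0.135, limma adjusted p = 0.0865).

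The activation genes did not follow 1 pattern. With sg495, 3 of the 4 were above both controls and Arg1 overlapped them; with sg492 all 4 were above both controls, a separation seen in 31.1% of all genes. None was called with either guide. The median difference over the 4 genes was 0.44 with sg495 and 0.52 with sg492.

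Mrc1 (ENSMUSG00000026712, GRCm38 chromosome 2, 14229392 to 14332057, plus strand) encodes the mannose receptor CD206. It had 10.97 and 11.89 TPM in the controls, 14.73 and 18.05 TPM in sg492 tumors, and 16.85 and 19.79 TPM in sg495 tumors. Both edited groups were above control and overlapped each other. The difference was 0.63 with sg495 (SE 0.138, limma adjusted p = 0.112) and 0.48 with sg492 (SE 0.138, limma adjusted p = 0.498).

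Nos2 (ENSMUSG00000020826, GRCm38 chromosome 11, 78920787 to 78960254, plus strand) encodes inducible nitric oxide synthase. It had 3.43 and 2.31 TPM in the controls, 5.15 and 6.15 TPM in sg492 tumors, and 4.45 and 6.89 TPM in sg495 tumors. Both edited groups were above control, and the sg492 libraries lay within the range of sg495. The difference was 0.78 with sg495 (SE 0.245, limma adjusted p = 0.204) and 0.79 with sg492 (SE 0.245, limma adjusted p = 0.506).

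Arg1 (ENSMUSG00000019987, GRCm38 chromosome 10, 24915221 to 24927484, minus strand) stood apart from the others. It had 18.68 and 14.12 TPM in the controls, 22.76 and 25.23 TPM in sg492 tumors, and 17.88 and 13.31 TPM in sg495 tumors. Control and sg495 overlapped, and both sg492 libraries were above the other 4. With sg495 the difference from control was −0.07 (SE 0.182, 95% interval −0.51 to 0.37, limma adjusted p = 0.890), and its sign turned when control replicate 1 (0.12) or sg495 replicate 2 (0.13) was left out. With sg492 it was 0.53 (SE 0.182, limma adjusted p = 0.525). Between the guides, the sg495 minus sg492 difference of Arg1 was −0.60 (SE 0.182, limma adjusted p = 0.341), not called although its unadjusted p was below 0.05. Both sg495 libraries were below both sg492 libraries for Arg1 and Cd163, as for 19.6% of all genes.

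Cd163 (ENSMUSG00000008845, GRCm38 chromosome 6, 124304656 to 124330527, plus strand) was the least abundant of the 10. It had 1.27 and 1.34 TPM in the controls, 2.20 and 2.39 TPM in sg492 tumors, and 2.08 and 1.46 TPM in sg495 tumors. Both guides were above control and sg492 was above sg495. The difference was 0.26 with sg495 (SE 0.214, limma adjusted p = 0.628) and 0.52 with sg492 (SE 0.214, limma adjusted p = 0.601).

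**Figure D2:**
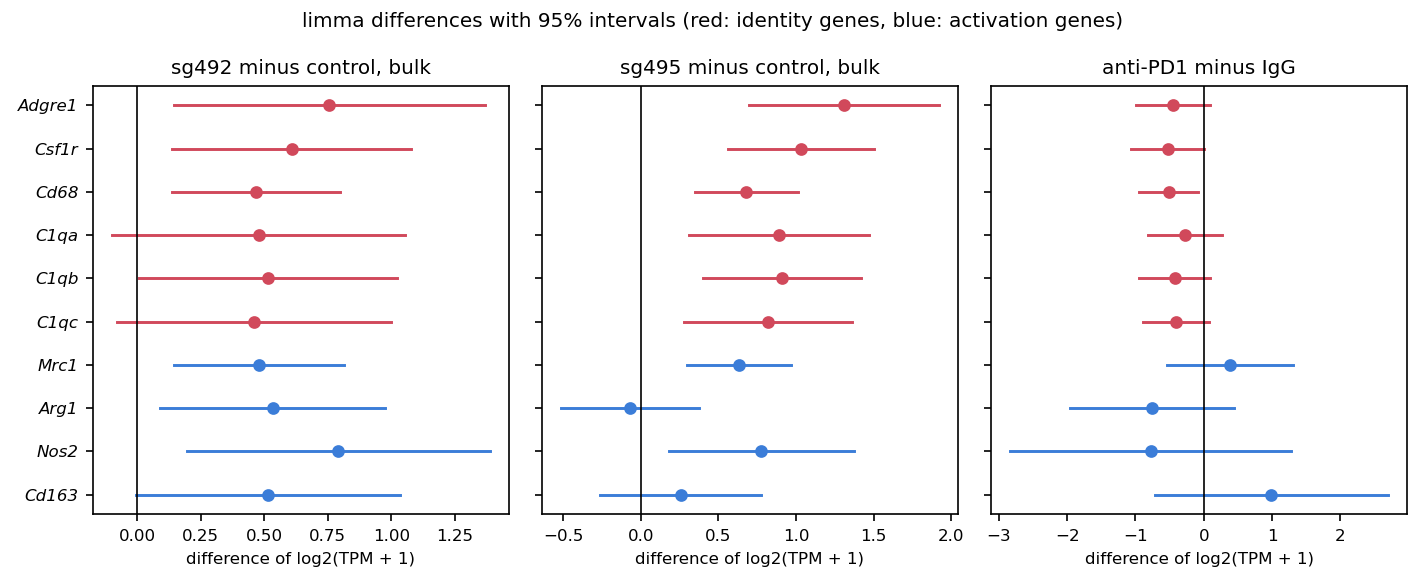
Differences in log2(TPM + 1) with the 95% interval of limma for the 10 genes, sg492 against control and sg495 against control in bulk tumors and anti-PD1 against IgG_Control. The x axes differ in range. With sg495 the 6 identity genes lie between 0.68 and 1.31 and Arg1 lies at −0.07, and with anti-PD1 the identity genes lie between −0.53 and −0.27.

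One control library weighed on these results. Control replicate 2 was lower than control replicate 1 in all 6 identity genes, for example with 51.23 against 87.06 TPM for C1qa. Without control replicate 1, the single control left being assumed to vary like the other groups, 5 of the 6 identity genes were called with sg495 (Adgre1, Csf1r, C1qa, C1qb and C1qc), with differences between 1.16 and 1.65, and 190 genes were called in all. Without control replicate 2 none of the 10 and 0 genes in all were called. With sg492, 0 genes of 13639 were called (0%) and 1132 (8.3%) had an unadjusted limma p below 0.05. Among those higher than control at that p (6.67% of all genes) were 4 identity and 3 activation genes. Both guides were compared with the same 2 control libraries.

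The guides were also compared with each other. Each of the 6 identity genes was higher in both sg495 libraries than in both sg492 libraries, a separation seen in 21.1% of all genes, and the differences ran from 0.21 for Cd68 to 0.55 for Adgre1. None had an unadjusted p below 0.05, and of all genes 0% were called and 10.1% had such a p. The limma adjusted p of the 6 lay between 0.537 and 0.679.

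To set activation against identity within a library, the mean log2(TPM + 1) of Adgre1, Csf1r, C1qa, C1qb and C1qc was subtracted from each activation gene. For Arg1 this gave −1.12 and −0.85 in control and −0.96 and −1.08 with sg492. With sg495 it was −1.78 and −2.31. Relative to the identity genes, Arg1 was thus alike in control and sg492 and lower in both sg495 libraries. The ratio of Arg1 to Csf1r in TPM ran the same way, with 1.36 and 1.52 in control, 1.44 and 1.27 with sg492 and 0.757 and 0.538 with sg495. Mrc1 lay at −1.84 and −1.08 in control, around the −1.55 and −1.54 of sg492, and at −1.87 and −1.77 with sg495. For Mrc1 both sg495 libraries were thus below both sg492 libraries, and control overlapped both groups. Cd163 lay at −4.24 and −3.54 in control, at −3.85 and −4.03 with sg492 and at −4.40 and −4.85 with sg495, where both libraries were again below the other 4. Nos2 lay at −3.28 and −3.04 in control, at −2.91 and −2.95 with sg492 and at −3.58 and −3.17 with sg495, which was below sg492 and overlapped control. On this scale, all 4 activation genes were thus lower relative to the identity genes in both sg495 libraries than in both sg492 libraries. Arg1 and Cd163 were also lower than in both controls. For Cd163, at 1.27 to 2.39 TPM, the added 1 TPM compresses the change, and the separation from control was not kept in TPM ratios. Between control replicate 1 and sg495 replicate 1, Cd163 went from 1.27 to 2.08 TPM. C1qb went from 102.39 to 149.08 TPM, a smaller fold change. The subtracted mean was itself highest with sg495 (6.02 and 6.15), against 5.53 and 5.79 with sg492 and 5.42 and 4.77 in control. A gene that did not rise with this mean therefore came out lower, and the share of all genes doing so was not computed. These relative values were computed from the genes themselves and carry no test.

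**Figure D3:**
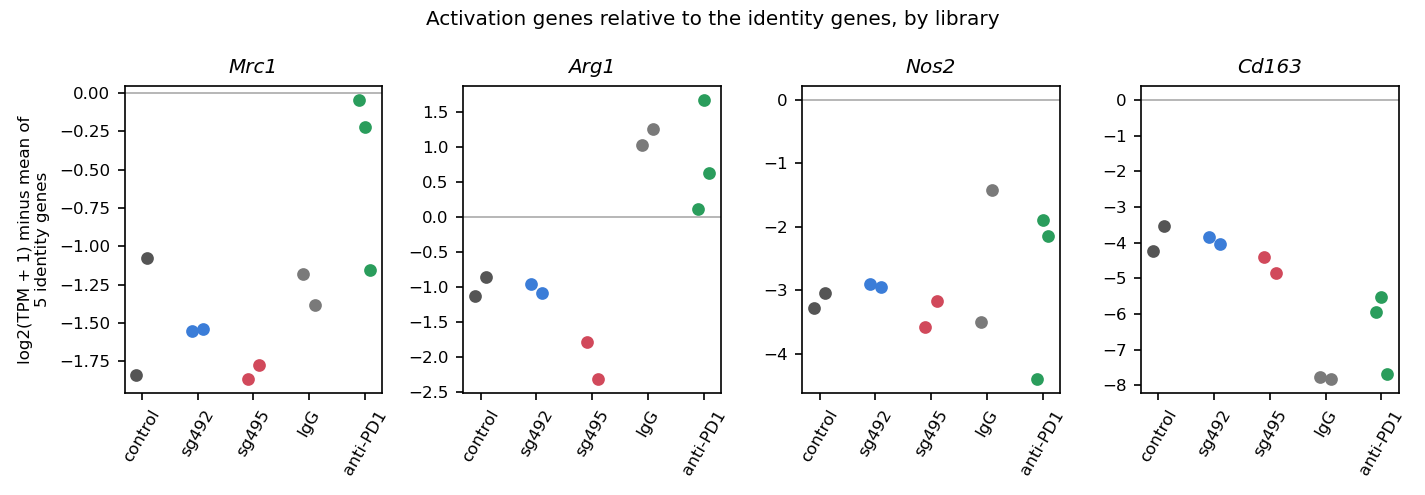
Each activation gene relative to the identity genes of the same library, as log2(TPM + 1) minus the mean of 5 identity genes (Cd68 left out). Each point is a library, and the y axes differ in range. Arg1 is below 0 in every bulk tumor, lowest with sg495, and above 0 in all 5 IgG_Control and anti-PD1 libraries, whereas Cd163 lies lower there than in the bulk tumors.

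Over the 6 bulk tumors, the level of an identity gene went with the mean of the others (Cd68 with all 5). Pearson r was 0.96 for Adgre1, 0.99 for Csf1r, Cd68 and C1qc, 0.98 for C1qa and 1.00 for C1qb. Nos2 (0.87) and Mrc1 (0.83) followed less closely, Cd163 had 0.42, and Arg1 had 0.12. These r are a description, because the 6 points are 3 groups of 2 and share each library's composition. The median r of 12027 other genes was 0.31, and 6.17% of them were above 0.9. The most alike were Cd52 (1.00), a glycoprotein of leukocytes, Fcer1g (0.997), the common γ chain of Fc receptors, Myo1f (0.996), a myosin of leukocytes, Selplg (0.995), the ligand of P-selectin, and H2-Q7 (0.995), a class Ib MHC gene whose reads may be shared with close relatives. Cd52 spanned 23.14 to 83.26 TPM and Fcer1g 39.47 to 102.55 TPM.

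Other macrophage genes were read from lists. Of 20 such genes 18 were tested in bulk tumors, and with sg495 17 were higher than control (63.1% of all genes were) and 11 of these had an unadjusted p below 0.05, 0 were called, and the median difference was 0.78. Fcgr3, an Fc receptor, differed by 0.94 (SE 0.145, limma adjusted p = 0.0865) and Lyz2, lysozyme of myeloid cells, by 0.76 (SE 0.133, limma adjusted p = 0.0990). The exception was Cd14, the endotoxin co-receptor, with 9.35 and 6.06 TPM in control and 6.32 and 5.57 TPM with sg495. With sg492 all 18 were higher (65.7% of all genes), 8 of them with an unadjusted p below 0.05, and the median was 0.48. Of the CSF1 axis 4 of 6 genes were tested, and all 4 were above both controls with either guide, as were 31.6% of all genes with sg495 and 31.1% with sg492 against the same 2 controls. The ligand Csf1 had 10.09 and 8.27 TPM in the controls, 13.31 and 15.47 TPM in sg492 tumors, and 13.35 and 14.54 TPM in sg495 tumors, while the second ligand, Il34, was at 1.53 TPM or less. Csf1 was also expressed in tumor cells, with 6.03 to 7.55 TPM in culture. Sorted cells held 3.87 and 2.89 TPM of it for control, 4.09 and 1.85 TPM for sg492, and 8.62 and 7.52 TPM for sg495.

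Genes that macrophages induce under IFN-γ or endotoxin were tested for 14 of 16, and with sg495 13 were higher, 10 of them with an unadjusted p below 0.05, and the median was 0.89. Cxcl9, a chemokine for T cells, had 14.01 and 7.0 TPM in the controls, 29.43 and 29.16 TPM in sg492 tumors, and 46.73 and 34.85 TPM in sg495 tumors. Tnf differed by 0.95 (SE 0.266, limma adjusted p = 0.163). Il6 was lower in both sg495 libraries (0.72 and 0.83 TPM) than in both controls (1.87 and 1.66 TPM), the 1 gene of the list lower at an unadjusted p below 0.05. Tumor cells and other cells also express several of these genes. Of the genes induced by IL-4 or IL-10, 11 of 12 were tested and 10 were higher with sg495, 6 with an unadjusted p below 0.05, and the median was 0.56. Mgl2 and Clec10a, lectins of macrophages and dendritic cells, differed by 1.00 and 0.94 (limma adjusted p = 0.131 and 0.121). Both activation lists were thus higher with sg495, 0 of their genes were called, and no test compared the lists.

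Arginine and nitric oxide metabolism had 6 of 8 genes tested, with a median of 0.20 with sg495. Ass1, which makes argininosuccinate on the way back to arginine, had a difference of 0.50 (SE 0.121, limma adjusted p = 0.127), and Asl, the next enzyme, one of 0.34 (SE 0.0689, limma adjusted p = 0.105). Slc7a1, a carrier of arginine, had a difference of −0.28 (SE 0.0810, limma adjusted p = 0.168), with both sg495 libraries below both controls. Ass1, Asl and Slc7a1 were also expressed in tumor cells. In culture, Ass1 had 61.83 and 56.09 TPM in control and 105.62 and 107.24 TPM with sg495. Sorted cells held 101.36 and 92.33 TPM of Slc7a1 for control and 78.10 and 84.47 TPM for sg495. In culture Slc7a1 was instead higher with sg495 (60.67 and 57.01 against 50.51 and 47.30 TPM). Asl was lower there (80.26 and 88.70 against 93.58 and 95.05 TPM). The part of tumor cells in the bulk differences was not tested. Arg2, the mitochondrial arginase, and Slc7a2, the carrier of activated macrophages, did not pass the filter of a mean of 1 TPM in bulk tumors.

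Some markers of other cells were also higher in bulk tumors with sg495. With sg495, the leukocyte gene Ptprc was higher by 1.46 (SE 0.250, limma adjusted p = 0.0973). All 6 T cell genes were higher (2 with an unadjusted p below 0.05, median 0.71), with a summed level of 6.08 to 14 TPM in control and 17.4 to 25.6 TPM with sg495. So were all 5 fibroblast genes (4 with an unadjusted p below 0.05, median 0.89), which summed to 165 to 208 TPM in control and 286 to 470 TPM with sg495, and the 5 of 7 dendritic cell genes tested (3, median 0.97). Of all genes, 63.1% were higher with sg495 and 11.1% were higher at an unadjusted limma p below 0.05. With sg495, 3 of the 6 T cell genes overlapped control, as did all 6 with sg492, where their median was 0.22. Ccr2 and Ly6c2, markers of inflammatory monocytes, differed by 1.41 and 1.55 (limma adjusted p = 0.0994 and 0.107), while S100a8 and S100a9, the calgranulins of neutrophils, differed by −0.59 and −0.88 (limma adjusted p = 0.634 and 0.576). Csf3r, the other tested gene of the monocyte and neutrophil list, was above both controls with sg495. Its levels were 2.82 and 0.97 TPM in the controls and 3.37 and 3.99 TPM in sg495 tumors. The 4 endothelial genes had a median of 0.17 and the 6 melanocyte genes one of 0.01, with no unadjusted p below 0.05 in either list. Of the B cell genes 1 of 3 passed the filter, of the NK cell genes 1 of 3 and of the muscle and skin genes 4 of 5, with no such p for sg495. For sg492, Krt5 and Krt14, keratins of the epidermis, differed by 1.80 and 1.86 (limma adjusted p = 0.481 for both). Csf1r over Ptprc was 1.48 and 1.61 in control, 1.15 and 1.24 with sg492 and 1.3 and 0.944 with sg495, so per unit of Ptprc the macrophage gene was not higher in the edited tumors. The part of these other cells in the result was not tested.

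After tumor cells were sorted, the macrophage genes were nearly gone. For 9 of the 10 genes the 6 sorted libraries held at most 0.34 TPM, 28 of the 54 values were 0, and the mean was at most 0.813% of that in bulk tumors. In cultured cells 48 of the 54 values were 0 and the highest was 0.06 TPM. Bulk against sorted tumor cells gave differences from 2.44 for Nos2 to 6.71 for C1qb, and the 9 genes that passed the filter (all but Cd163) were called, as were 10% of all genes in that direction. A gene at 0 in sorted cells passed the filter through bulk tumors alone, so the count supports nothing. The exception was Cd68, which kept 9.70% of its bulk level. Sorted cells held 5.06 and 3.62 TPM of it for control, 5.38 and 5.88 TPM for the label sg492, and 6.76 and 12.09 TPM for sg495. Cultured cells held 1.76 and 1.28 TPM for control, 1.14 and 1.11 TPM for sg492, and 3.05 and 2.42 TPM for sg495. Cd68 with sg495 was above both controls in sorted cells (difference 0.93, SE 0.280, limma adjusted p = 0.206, separated in 17.9% of genes) and in culture (0.57, SE 0.184, limma adjusted p = 0.106, separated in 27.5%), where the other 5 identity genes were at 0.31 TPM or less. It was not called in either, against 0.899% of the sorted and 2.77% of the cultured genes in either direction. In the sorted cells labeled sg492, Nr2f6 (19.84 and 25.70 TPM) was not below control (20.32 and 17.73 TPM).

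**Figure D4:**
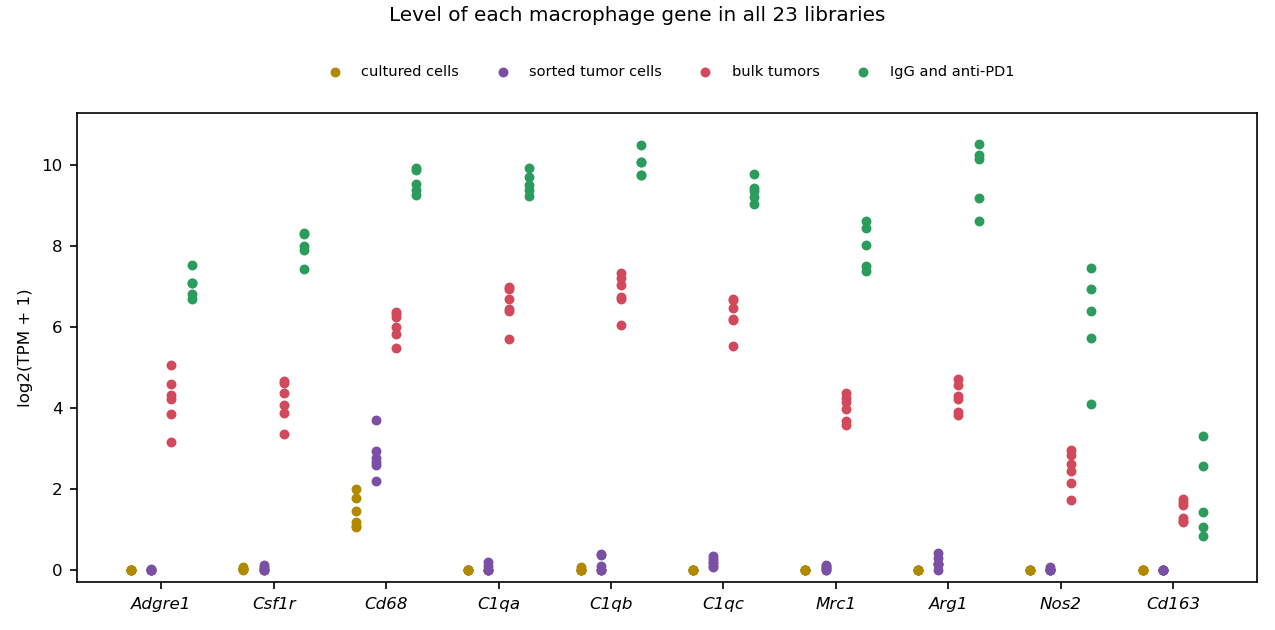
Level of each macrophage gene as log2(TPM + 1) in cultured cells (6 libraries), sorted tumor cells (6), bulk tumors (6) and the IgG_Control and anti-PD1 libraries (5). Each point is a library. Only Cd68 is above 1 TPM in sorted and cultured cells, and the IgG_Control and anti-PD1 libraries lie above all bulk tumors for every gene but Cd163.

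The IgG_Control and anti-PD1 libraries were not like the bulk tumors. For 9 of the 10 genes, all 5 of them were above all 6 bulk tumors, and the median was 7.34-fold higher for Adgre1, 7.62 for C1qa, 8.16 for C1qc, 9.18 for C1qb, 10.7 for Cd68 and 14.3 for Csf1r. Among the activation genes it was 16.6-fold higher for Mrc1, 17.6 for Nos2 and 61.9 for Arg1. Cd163 was the exception, with a ratio of medians of 0.972 and overlapping ranges. The share of all genes separated in this way was not computed, so the count only describes these 10 genes. The order of the genes changed as well: in bulk tumors Arg1 (median 18.3 TPM) was close to Adgre1 (18.4) and Csf1r (17.8), whereas in these 5 libraries its median of 1132 TPM was beside that of C1qb (1087 TPM). Retnla, a gene induced by IL-4, was lower in all 5 than in every bulk tumor, with 7.17 to 14.38 TPM in bulk tumors and 0 to 3.36 TPM here. The whole list of genes induced by IL-4 or IL-10, which includes Retnla, went the other way. It summed to 52.0 to 94.9 TPM in bulk tumors and 755 to 1372 TPM in the IgG_Control and anti-PD1 libraries. The 2 sets differ in more than macrophage genes. Melanocyte genes summed to 1634 to 4907 TPM and fibroblast genes to 6.99 to 50.8 TPM, each below every bulk tumor. Ptprc was at 86.7 to 272.5 TPM, against 5.74 to 26.2 TPM in bulk tumors, and mitochondrial genes held 8.63% to 21.9% of the TPM, against 4.73% to 6.70%. Without a label for the sample type, treatment, preparation and batch cannot be told apart, and no test was run between the 2 sets.

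**Figure D5:**
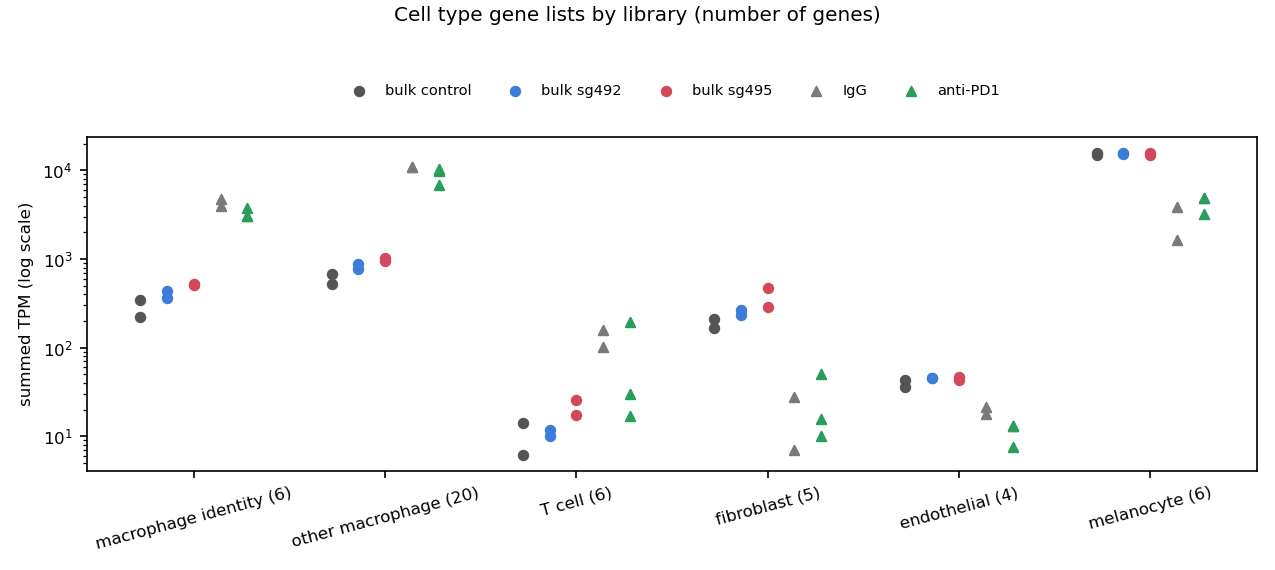
Summed TPM, on a log scale, of 6 lists of cell type genes in the bulk tumors (circles) and the IgG_Control and anti-PD1 libraries (triangles), with the number of genes in parentheses. Each point is a library. The IgG_Control and anti-PD1 libraries are higher in both macrophage lists and lower in the fibroblast, endothelial and melanocyte lists than every bulk tumor.

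Within these 5 libraries, anti-PD1 was compared with IgG_Control. The 6 identity genes were all lower on average with anti-PD1 (53.5% of all genes were), with differences from −0.53 to −0.27 and a median of −0.44 (−0.04 over all genes). None of the 10 was called, 0% of the 13418 genes tested were, and 964 genes (7.18%) had an unadjusted limma p below 0.05. Csf1r had 319.80 and 315.38 TPM with IgG_Control and 173.14, 254.56 and 240.21 TPM with anti-PD1. Cd68 had 973.53 and 950.53 TPM with IgG_Control and 613.04, 745.57 and 666.09 TPM with anti-PD1. In both, all anti-PD1 libraries were below both IgG_Control libraries, as also for Adgre1 and C1qc, 4 of 6, a separation seen in 15.8% of all genes. The difference of Cd68 was −0.52 (SE 0.184, limma adjusted p = 0.608), and Cd68 was the only one of the 10 with an unadjusted p below 0.05 (4.21% of all genes were lower at that p). C1qa and C1qb overlapped between the groups.

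The activation genes varied more between libraries of 1 group than between the groups. Arg1 had 1224.32 and 1132.23 TPM with IgG_Control and 394.53, 1477.95 and 581.67 TPM with anti-PD1 (difference −0.75, SE 0.507, limma adjusted p = 0.620). Nos2 had 52.03 and 176.82 TPM with IgG_Control and 16.22, 123.17 and 84.30 TPM with anti-PD1 (difference −0.78, SE 0.871, limma adjusted p = 0.746), and its sign turned without IgG_Control replicate 2 (0.10) or anti-PD1 replicate 1 (0.08). All 4 genes overlapped, with anti-PD1 replicate 1 lowest in Arg1 and Nos2. Mrc1 had 262.39 and 180.43 TPM with IgG_Control and 350.24, 394.47 and 167.67 TPM with anti-PD1 (difference 0.39, SE 0.390, limma adjusted p = 0.715). Cd163 had 1.72 and 1.09 TPM with IgG_Control and 4.92, 8.95 and 0.81 TPM with anti-PD1 (difference 0.99, SE 0.723, limma adjusted p = 0.644). In Mrc1 and Cd163, anti-PD1 replicates 1 and 2 were above both IgG_Control libraries and replicate 3 was the lowest of the 5.

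Anti-PD1 replicates 1 and 2 were also alike in other lists. Their 6 T cell genes summed to 16.7 and 29.7 TPM, against 195.7 TPM in replicate 3 and 102.8 and 157.2 TPM with IgG_Control. Their melanocyte genes summed to 4907 and 4859 TPM, against 3218 TPM in replicate 3 and 3817 and 1634 TPM with IgG_Control. All 6 melanocyte genes were higher on average with anti-PD1, 2 of them with an unadjusted p below 0.05 (median 0.83). Of 19 other macrophage genes tested, 16 were lower (2 with an unadjusted p below 0.05, median −0.44), and all 15 tested genes of the IFN-γ and endotoxin list were lower (0 with an unadjusted p below 0.05, median −0.70). Folr2 and Lyve1, genes of tissue-resident macrophages, were highest in the same 2 libraries as Cd163. Folr2 had 49.12, 57.84 and 22.55 TPM with anti-PD1 against 23.22 and 21.39 TPM with IgG_Control, and Lyve1 had 2.60, 3.82 and 0.56 TPM against 0.12 and 0 TPM. Mitochondrial genes held 21.9%, 8.63% and 16.6% of the TPM in anti-PD1 replicates 1 to 3 and 10.2% and 11.4% with IgG_Control. The part of melanoma content, T cells and mitochondrial share in these differences was not tested.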

How the data were processed

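RNA-seq of B16F10 was used from 23 libraries. Per the methods and the labels' processing notes, the authors trimmed adapters (cutadapt 2.3), aligned reads to mm10 with STAR 2.7.0d using an Ensembl annotation, and estimated gene levels in RSEM 1.3.1. They deposited 1 table of TPM, scaled for gene length and library. The estimated counts behind their own test, the Wald test of DESeq2, were not used here, so depth per library is unknown and no count model or interval from counts was fitted. The thresholds of that test were kept.

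The deposited TPM were not rescaled and were taken to log2(TPM + 1). Each sample type, and the IgG_Control and anti-PD1 libraries, was fitted alone (1 mean per group) with limma 3.58.1 in R 4.3.3 (lmFit, eBayes with a trend) on genes averaging 1 TPM or more. The tests are 2-sided, with Benjamini-Hochberg adjustment over all genes tested. With 2 libraries per group the lowest p of an exact permutation test is 0.333. All 10 genes passed the filter in bulk tumors and in the IgG_Control and anti-PD1 libraries, and Cd68 alone in sorted and in cultured cells. Bulk tumors were compared with sorted tumor cells in 1 fit of both. The genes and lists were chosen with earlier results of these data known. Genes named are the 10, the members of 15 other lists written by hand, Nr2f6, and the 5 genes most like the identity mean by Pearson r. Acod1 is held in the table as Irg1. For a symbol held by 2 genes the one with the higher mean was used. Positions are of GENCODE M21 (GRCm38) and promoters of RefSeq. Scripts were tested on simulated data. Alternatives were a pseudocount of 0.1, no filter, median-of-ratios scaling, quantile normalization, no trend, no fold threshold, a replicate block, 2 groups only, all 18 libraries in 1 fit, and each library left out in turn. Plots used Python 3.11.15, pandas 2.3.3 and matplotlib 3.10.9.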

Additional observations from a re-analysis of the deposited data

How the results depend on the processing

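Of 777 values under alternatives, 758 kept their direction and their side of the threshold, 13 newly passed it, 0 lost it and 6 changed sign. With all 18 libraries in 1 fit, 6 members were called for sg495 in bulk tumors (Adgre1, Csf1r, C1qa, C1qb, C1qc and Mrc1; 395 genes in all, against 4) and 1, Cd68, in sorted tumor cells (limma adjusted p = 0.0213). That fit takes its spread also from sorted and cultured libraries, in which most members are near 0. With each library left out in turn, between 0 and 5 members were called for sg495 in bulk tumors. Without control replicate 1, 190 genes were called for sg495 and 66 for sg492. Over these fits Arg1 with sg495 ran from −0.27 to 0.13, Nos2 between the guides from −0.28 to 0.25 and Nos2 with anti-PD1 from −1.65 to 0.10. The sign changed for Arg1 with sg495 (0.12 without control replicate 1, 0.13 without sg495 replicate 2), for Nos2 between the guides (0.09 without sg492 replicate 2, 0.25 without sg495 replicate 1) and for Nos2 with anti-PD1 (0.10 without IgG_Control replicate 2, 0.08 without anti-PD1 replicate 1). In each the cause was not tested.

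Libraries with the same replicate number did not deviate together (r of deviations between −0.126 and 0.0803). With a replicate block, 0 members were called in bulk tumors and 1, Nos2, with anti-PD1 (−1.07, limma adjusted p = 0.0449; 514 genes in all), where anti-PD1 replicate 3 has no partner. With the replicate numbers of sg492 exchanged in bulk tumors, chosen after seeing the data, 0 members were called for either guide. Genes called in other fits were 0 to 3 for bulk sg495 (pseudocount of 0.1, no filter, block, 2 groups, or any library but control replicate 1 left out), and from 3 to 399 for sorted sg495. The limits are 2 or 3 libraries per group, unknown depth, and no label for the sample type of the IgG_Control and anti-PD1 libraries.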
